A study of Homo sapiens with 54 samples.

Results

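TRPM8, CHRNA2 and TRPM4 are 3 ion channel genes of the 19225 genes and other transcripts measured in 3 prostate cancer cell lines. They were picked by name, with the responses to estradiol and to enzalutamide in these libraries already known, as channels under hormone control. For those responses the levels are therefore described with no test. The mean level of TRPM4 lay between 95 and 112 counts per 1000000 reads (CPM) in all 6 treatments of LNCaP, between 53.1 and 60.8 CPM in C4-2 and between 53.4 and 56.4 CPM in 22Rv1.

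TRPM8 encodes a calcium-permeable cation channel of the TRP family that opens on cooling and to menthol, and in the prostate it is known as an androgen-responsive gene of the luminal epithelium. TRPM4, of the same family, encodes a channel that calcium opens from inside the cell and that passes sodium and potassium but hardly any calcium. CHRNA2 encodes the alpha2 subunit of nicotinic acetylcholine receptors, ligand-gated cation channels best known from neurons, in which alpha subunits pair with beta subunits.

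LNCaP was established from a metastasis in a lymph node. C4-2 was derived from it by passage in castrated mice, and 22Rv1 was raised from a xenograft that had regrown after castration. As background, LNCaP and C4-2 carry an androgen receptor whose ligand-binding domain is mutated and accepts more steroids, and 22Rv1 also makes receptor variants that lack this domain. Cells in RPMI medium with 10% FBS, a serum whose steroid content the labels do not give, were exposed for 12 h to ethanol (vehicle), to 17-beta-estradiol (E2, 100 nM), to OSU-ERb-12 (OSU, 100 nM), an estrogen receptor beta agonist, to the androgen receptor antagonist enzalutamide (Enza, 1 µM), or to Enza together with E2 or with OSU. Each of the 18 groups had 3 libraries, biological triplicates per the labels, all with the genotype tag WT.

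The libraries held 32819568 to 52417050 reads in genes, so that 1 read was worth 0.0204 to 0.0323 CPM. All 8 luminal markers tested, among them KLK3 and HOXB13, had a mean of at least 1 CPM in each line. Their summed level was 2490 to 4130 CPM in LNCaP libraries, 3350 to 5150 CPM in C4-2 and 1030 to 1230 CPM in 22Rv1. In the same order of lines, KLK3 averaged 980, 1980 and only 10.3 CPM, and HOXB13 486, 443 and 230 CPM. Of markers of other cells, the basal marker KRT14 did not exceed 1.77 CPM, the fibroblast gene COL1A1 stood at 2.12 to 20.2 CPM, and the leukocyte marker CD68 at 4.02 to 10.3 CPM. The neuroendocrine or neuronal markers CHGA, SYP and ELAVL3 summed to 1.74 to 4.3 CPM. Only 1 of 4 basal, 2 of 4 fibroblast, 1 of 4 leukocyte and 3 of 5 neuroendocrine markers were in the file. The others could not be judged. An earlier description of these data names 4 libraries that stand apart (C4-2 vehicle 1, C4-2 E2 3, 22Rv1 vehicle 3 and 22Rv1 OSU+Enza 2). The first is a C4-2 library by its title but is tagged as 22Rv1 in its cell line label. It held 111 CPM of TRPM8, between the 103 and 116 CPM of the other C4-2 vehicle libraries, whereas every 22Rv1 library had 0 reads of this gene. In the text a level is given as mean ± SD of 3 libraries and a log2 fold change, on the log2(CPM + 0.5) scale, as estimate ± SE. Comparisons with vehicle share the vehicle libraries, and those with Enza share the Enza libraries. The vehicle libraries compared between lines also entered the responses known when the genes were chosen.

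The promoters of the 2 TRP channel genes are shown because these genes belong to 1 family and differed in their response. In the RefSeq annotation of GRCh38.p14, TRPM8 (gene 79054) lies on the plus strand of chromosome 2 (chr2:233917373-234019522) and TRPM4 (gene 54795) on the plus strand of chromosome 19 (chr19:49157792-49211836). The runs below are the 250 bases before each start, chr2:233917123-233917372 and chr19:49157542-49157791, read 5′ to 3′ on the gene strand, with capitals for the letters TATAAA.
TRPM8: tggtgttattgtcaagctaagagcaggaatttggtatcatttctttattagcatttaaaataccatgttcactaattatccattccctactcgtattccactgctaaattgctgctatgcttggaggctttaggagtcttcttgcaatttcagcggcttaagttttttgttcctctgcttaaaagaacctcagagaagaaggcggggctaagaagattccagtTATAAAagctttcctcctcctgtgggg
TRPM4: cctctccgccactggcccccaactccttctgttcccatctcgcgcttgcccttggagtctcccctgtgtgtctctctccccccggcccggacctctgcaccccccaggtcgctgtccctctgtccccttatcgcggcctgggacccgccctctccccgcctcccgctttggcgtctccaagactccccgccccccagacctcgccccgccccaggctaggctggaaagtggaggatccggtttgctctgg
The TRPM8 window held 40.0% G and C, and 12.8% of the 34943 RefSeq promoter windows of the same length held less. It had TATAAA starting 27 bases before the gene start, letters found on the gene strand in 6.82% of windows. The TRPM4 window held 69.2% G and C, with 77.5% of windows below it and a median of 58.0%, and had no TATAAA. Neither had the androgen receptor half-site AGAACA on either strand (TGTTCT on the gene strand), which 12.4% of windows had.

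The palindrome GNACANNNTGTNC, a relaxed form of the androgen response element that reads the same on both strands and does not need the half-site letters above, was searched over the whole genome. It occurred within 10 kb of the GENCODE v44 start, which for TRPM4 and CHRNA2 is not the RefSeq start, of 22.5% of 18079 measured genes, and in 0.326% of the 250-base windows. TRPM4, whose level stayed in a narrow range, had 1 match in that range, 2.79 kb downstream of its GENCODE start (position 49157741) in an intron (chr19:49160527-49160539). TRPM8 and CHRNA2 had none. The nearest match to TRPM8 was 19.1 kb downstream of its start, also in an intron (chr2:233936457-233936469), and 38.6% of genes had one nearer. The 2 matches, with the fixed letters in capitals, were as follows.
TRPM8 intron: GcACAgttTGTcC
TRPM4 intron: GaACAgcaTGTgC
The nearest match to CHRNA2 was 27.3 kb away, equal to the median distance of all genes. A match in letters describes the sequence and says nothing of binding.

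TRPM8 under vehicle was the member that differed most between the lines. LNCaP vehicle libraries held 13.6, 12.0 and 12.5 CPM (12.7 ± 0.845 CPM), C4-2 vehicle libraries 111, 103 and 116 CPM (110 ± 6.43 CPM), and the 18 libraries of 22Rv1, whatever the treatment, no read at all. The ranges of the lines did not overlap. C4-2 stood 8.65-fold above its parent LNCaP, a log2 difference of 3.06 ± 0.08 (adjusted p = 4.8e-36, limma with Benjamini-Hochberg adjustment, 54 libraries). A count of 0 allows up to 3 reads, at most 0.0721 CPM in a 22Rv1 vehicle library, so that TRPM8 was at least 176-fold higher in LNCaP and at least 1520-fold higher in C4-2 than in 22Rv1. The lines differed in most genes, which sets the scale for these calls: of 16026 genes, 66.7% were called between C4-2 and LNCaP, 83.3% between 22Rv1 and LNCaP and 84.7% between 22Rv1 and C4-2, and 69.1%, 83.7% and 86% did not overlap.

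CHRNA2 (gene 1135, minus strand, chr8:27459756-27479261) was detected in all 3 lines under vehicle. Its libraries held 10.1, 9.42 and 9.28 CPM in LNCaP (9.61 ± 0.453 CPM), 5.36, 4.19 and 4.4 CPM in C4-2 (4.65 ± 0.622 CPM), and 8.25, 8.08 and 9.09 CPM in 22Rv1 (8.47 ± 0.543 CPM). C4-2 thus had the lowest level, the opposite of TRPM8. The log2 difference of C4-2 from LNCaP was -0.98 ± 0.10 (adjusted p = 1.36e-12, limma) and that of 22Rv1 from C4-2 0.81 ± 0.10 (adjusted p = 1.42e-10, limma). Between 22Rv1 and LNCaP it was -0.17 ± 0.10 with a 95% interval of -0.37 to 0.02 (adjusted p = 0.0925, limma), and the call depended on the processing: the adjusted p was 0.0475 with a pseudocount of 2 CPM and 0.0409 without the 4 libraries that stand apart.

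TRPM4 was the most evenly expressed of the 3. Under vehicle it stood at 91.5, 98.5 and 96.4 CPM in LNCaP (95.4 ± 3.60 CPM), at 57.4, 51.5 and 56.3 CPM in C4-2 (55.1 ± 3.13 CPM), and at 54.5, 56.2 and 56.4 CPM in 22Rv1 (55.7 ± 1.04 CPM). LNCaP lay above both other lines with no overlap, by log2 differences of -0.79 ± 0.04 for C4-2 (adjusted p = 1.08e-21, limma) and -0.77 ± 0.04 for 22Rv1 (adjusted p = 5.11e-22, limma). C4-2 and 22Rv1 overlapped, with a difference of 0.02 ± 0.04 and an interval of -0.07 to 0.10 (adjusted p = 0.702, limma). Scaled to total reads instead of the authors' effective sizes, this difference was 0.26 in favour of 22Rv1 and was called (adjusted p = 4.06e-06).

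Per kilobase of exon (7928 bases of TRPM8, 5062 of CHRNA2 and 6604 of TRPM4 in GENCODE v44), the order of the 3 genes changed with the line. In vehicle-treated LNCaP the level was 14.5 CPM per kilobase for TRPM4, 1.90 for CHRNA2 and 1.60 for TRPM8. In C4-2, TRPM8 came first with 13.9 CPM per kilobase, ahead of TRPM4 with 8.34 and CHRNA2 with 0.919. In 22Rv1 the values were 8.43 for TRPM4 and 1.67 for CHRNA2, with no read for TRPM8. The span of TRPM8 also holds 2 GENCODE genes on the opposite strand, and whether the authors' counting used strand is not given in the sources used here.

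**Figure D1:**
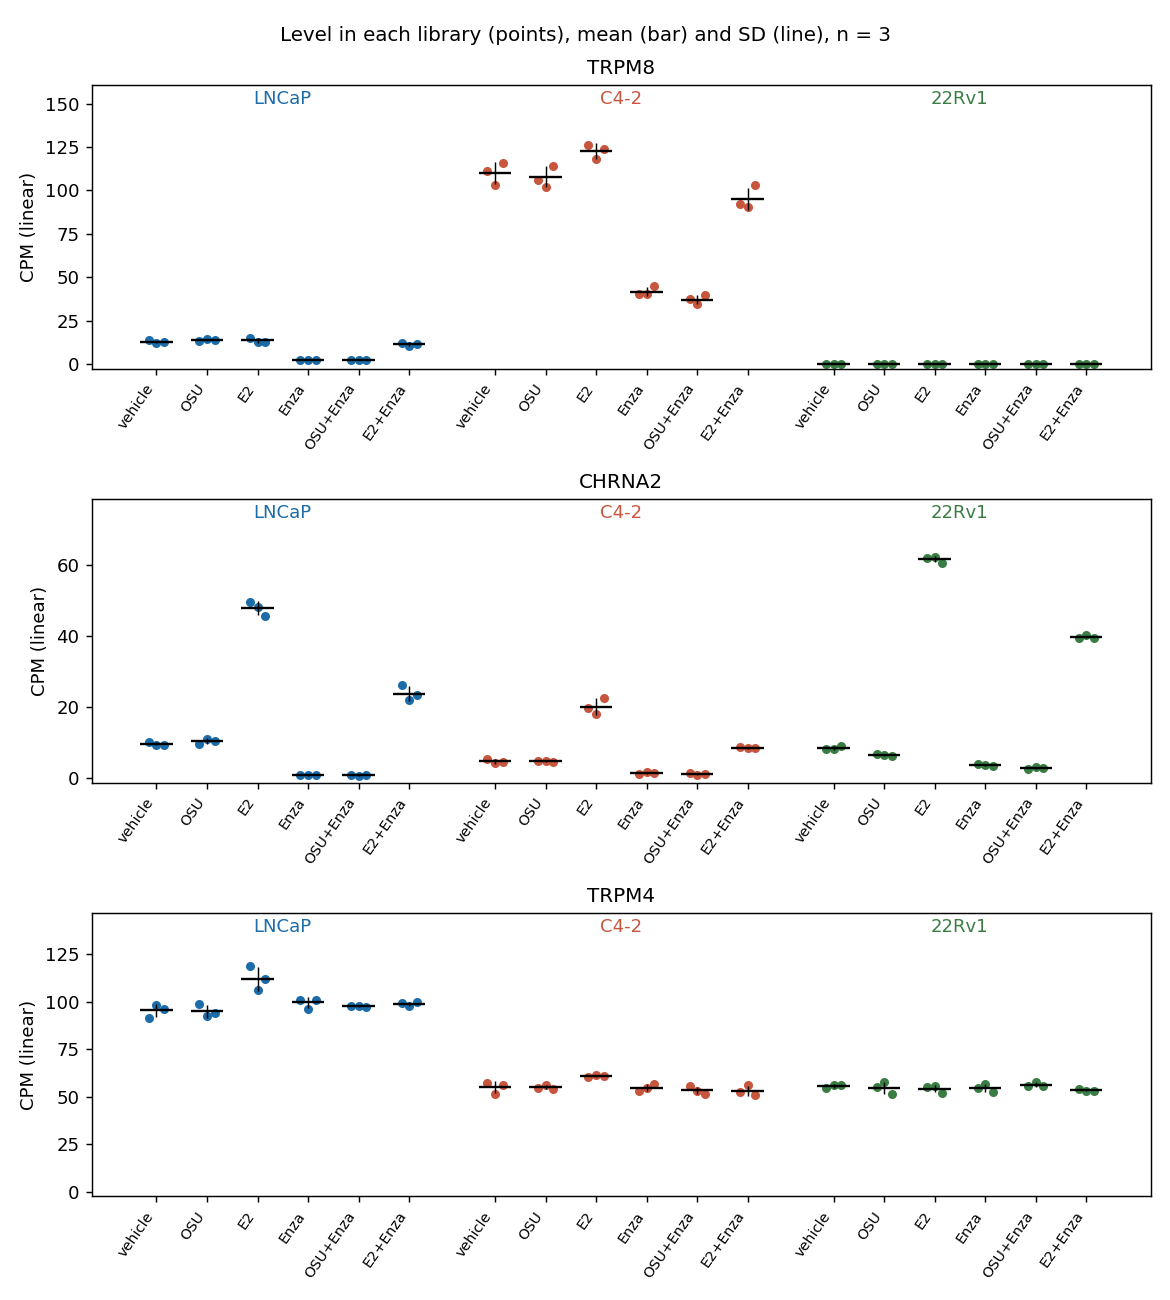
Level of TRPM8, CHRNA2 and TRPM4 in CPM (linear y axis) in each of the 54 libraries, by cell line and treatment. Points are libraries, horizontal bars means and vertical lines SD (n = 3). TRPM8 points drop with Enza in LNCaP and C4-2 and lie at 0 in 22Rv1, CHRNA2 points are highest with E2 in each line, and TRPM4 points lie in a narrow band within each line.

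E2 separated the 3 genes. CHRNA2 with E2 stood at 49.7, 48.3 and 45.8 CPM in LNCaP (47.9 ± 2.01 CPM), at 19.8, 17.9 and 22.5 CPM in C4-2 (20.1 ± 2.34 CPM), and at 62.1, 62.3 and 60.7 CPM in 22Rv1 (61.7 ± 0.868 CPM). Every E2 library lay above every vehicle library of its line. In the order LNCaP, C4-2 and 22Rv1, the ratios of means were 4.99, 4.31 and 7.28, and the log2 fold changes 2.26 ± 0.09, 2.00 ± 0.12 and 2.79 ± 0.08. The mean was higher in LNCaP than in 22Rv1 with vehicle, a difference that was not called, and lower than in 22Rv1 with E2.

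TRPM8 with E2 stood close to vehicle. Its libraries held 15.2, 12.9 and 12.7 CPM in LNCaP (13.6 ± 1.38 CPM), overlapping vehicle, and 126, 118 and 124 CPM in C4-2 (123 ± 4.62 CPM), just above the highest vehicle library at 116 CPM. The log2 fold changes were 0.09 ± 0.09 in LNCaP and 0.16 ± 0.06 in C4-2. No TRPM8 read appeared in 22Rv1 with E2.

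TRPM4 with E2 stood at 119, 106 and 112 CPM in LNCaP (112 ± 6.36 CPM), at 60.3, 61.2 and 60.7 CPM in C4-2 (60.8 ± 0.461 CPM), and at 55.2, 55.6 and 52.2 CPM in 22Rv1 (54.3 ± 1.84 CPM). E2 libraries were above vehicle in LNCaP and C4-2 without overlap and overlapped vehicle in 22Rv1. These differences were small, 0.23 ± 0.04, 0.14 ± 0.05 and -0.04 ± 0.05 on the log2 scale. In all, 2 of the 3 genes did not overlap between E2 and vehicle in LNCaP, 3 of 3 in C4-2 and 1 of the 2 measurable ones in 22Rv1, where 36.4%, 26.7% and 44.8% of all genes tested did not.

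With Enza, TRPM8 and CHRNA2 stood below vehicle and TRPM4 did not. TRPM8 with Enza held 2.41, 2.28 and 2.33 CPM in LNCaP (2.34 ± 0.0687 CPM), 18.4% of the vehicle mean, and 40.4, 40.3 and 44.8 CPM in C4-2 (41.8 ± 2.61 CPM), 38.1% of it. Enza and vehicle libraries were far apart in both lines, with log2 fold changes of -2.21 ± 0.09 and -1.38 ± 0.06. Even so, C4-2 with Enza kept more TRPM8 than LNCaP had without it.

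CHRNA2 with Enza stood at 0.676, 0.871 and 0.733 CPM in LNCaP (0.76 ± 0.1 CPM, 28 to 39 reads per library), which is 7.91% of the vehicle mean. In C4-2 it was 1.17, 1.75 and 1.31 CPM (1.41 ± 0.304 CPM, 30.4%), and in 22Rv1 3.96, 3.59 and 3.42 CPM (3.65 ± 0.277 CPM, 43.1%). Enza libraries lay below vehicle in each line with no overlap. The log2 fold changes were -3.01 ± 0.09, -1.43 ± 0.12 and -1.11 ± 0.08. LNCaP had the lowest mean with Enza. Its vehicle mean was the highest, though not called different from that of 22Rv1. For LNCaP the estimate depends on the pseudocount: it was -3.50 with 0.1 CPM and -2.07 with 2 CPM added.

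TRPM4 with Enza stood at 101, 96.4 and 101 CPM in LNCaP, at 52.9, 54.7 and 56.9 CPM in C4-2 and at 54.5, 56.6 and 52.3 CPM in 22Rv1. Each of these groups overlapped vehicle. The log2 fold changes, 0.06 ± 0.04, 0.00 ± 0.05 and -0.03 ± 0.05, had 95% intervals reaching at most 0.14 either way. Enza and vehicle did not overlap for 2 of the 3 genes in LNCaP and in C4-2 and for 1 of 2 in 22Rv1, against 31.8%, 33.7% and 19.1% of all genes tested.

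**Figure D2:**
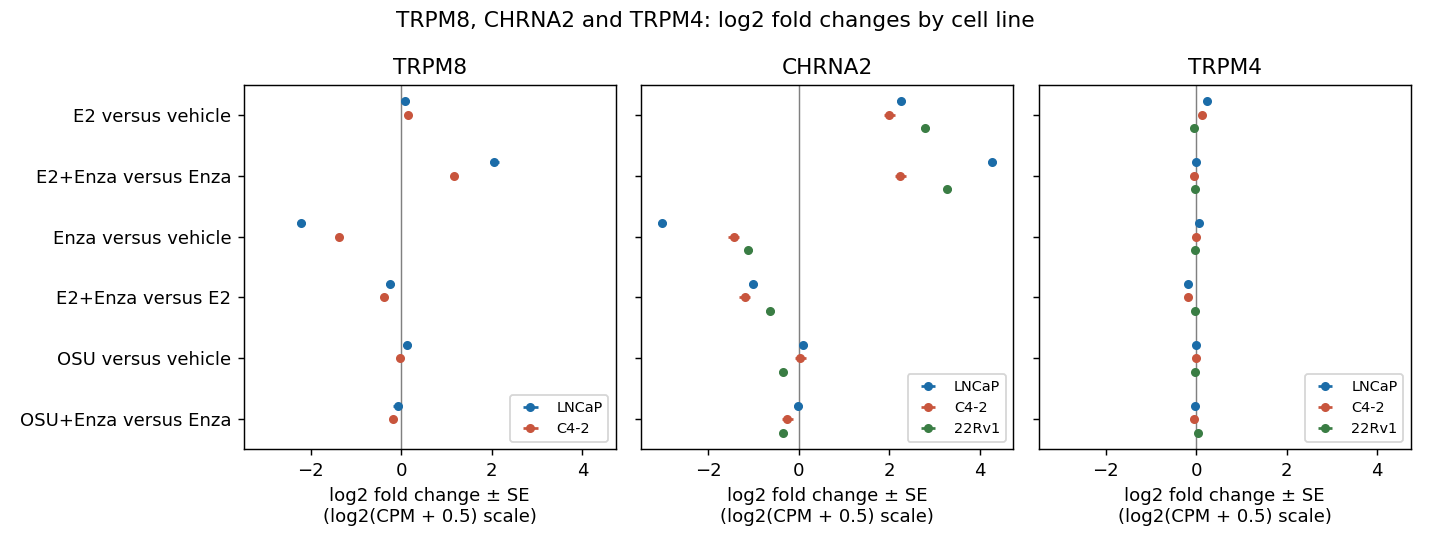
Log2 fold change ± SE (x axis, log2(CPM + 0.5) scale) of TRPM8, CHRNA2 and TRPM4 in 6 comparisons (y axis), 1 point per cell line from 3 libraries per group. TRPM8 has no points for 22Rv1, where it had no reads, and TRPM4 points lie between -0.19 and 0.23.

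With E2 given together with Enza, TRPM8 overlapped vehicle in LNCaP and lay somewhat below every vehicle library in C4-2. Relative to vehicle the log2 fold changes were -0.16 ± 0.09 and -0.21 ± 0.06. Of all genes, 24.3% and 12.1% did not overlap vehicle. The libraries held 12.3, 10.3 and 11.5 CPM in LNCaP (11.4 ± 1.02 CPM, 89.4% of vehicle) and 92.4, 90.3 and 103 CPM in C4-2 (95.1 ± 6.53 CPM, 86.6%). Relative to Enza alone the ratio of means was 4.85 in LNCaP and 2.27 in C4-2, with log2 fold changes of 2.06 ± 0.09 and 1.17 ± 0.06. TRPM8 thus stood higher with E2 than without it by far more when Enza was present: the difference between the E2 effects with and without Enza was 1.97 ± 0.12 in LNCaP and 1.01 ± 0.08 in C4-2. With the combination TRPM8 stayed below E2 alone, by log2 fold changes of -0.25 ± 0.09 and -0.37 ± 0.06, without overlap.

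CHRNA2 with the combination stood between vehicle and E2 alone in every line. It held 26.1, 22.0 and 23.3 CPM in LNCaP (23.8 ± 2.09 CPM), 8.75, 8.32 and 8.32 CPM in C4-2 (8.47 ± 0.249 CPM), and 39.6, 40.2 and 39.5 CPM in 22Rv1 (39.8 ± 0.364 CPM). These means are 247%, 182% and 469% of vehicle. Relative to Enza alone they were 31.3-fold, 5.99-fold and 10.9-fold higher, with log2 fold changes of 4.27 ± 0.09, 2.24 ± 0.12 and 3.28 ± 0.08, and relative to E2 alone the log2 fold changes were -1.0 ± 0.09, -1.19 ± 0.12 and -0.63 ± 0.08. The difference between the E2 effects with and without Enza was 2.01 ± 0.13 in LNCaP, 0.24 ± 0.17 in C4-2 and 0.48 ± 0.11 in 22Rv1. These values depend on the pseudocount: with 2 CPM added they were 1.12, -0.11 and 0.28, and with 0.1 CPM added 2.49, 0.43 and 0.56.

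TRPM4 with the combination held 99.1, 97.7 and 99.6 CPM in LNCaP, 52.7, 56.0 and 50.7 CPM in C4-2, and 54.1, 53.1 and 53.1 CPM in 22Rv1, and overlapped Enza alone in each line. The small excess seen with E2 alone was absent from these libraries: relative to E2 the log2 fold change was -0.18 ± 0.04 in LNCaP and -0.19 ± 0.05 in C4-2, without overlap, and -0.02 ± 0.05 in 22Rv1, with overlap. Between the combination and Enza, 2 of 3 genes did not overlap in LNCaP and in C4-2 and 1 of 2 in 22Rv1, where 36.4%, 22.2% and 21.2% of all genes did not and 23.1%, 7.38% and 7.94% were called. Between the combination and E2 it was 3 of 3, 3 of 3 and 1 of 2, beside 30.3%, 16.7% and 12.6%.

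OSU libraries were not used to choose the genes, so the OSU comparisons were tested. Their vehicle and Enza libraries, however, also entered the responses known at the choice. None of the 3 genes was called for OSU versus vehicle in any line, where limma called 2 of 14251 genes in LNCaP (0.014%), 0 of 14027 in C4-2 (0%) and 0 of 14866 in 22Rv1 (0%). At an unadjusted p under 0.05 there were 946, 396 and 298 genes, and voom weights gave 0 calls in each line. With no effect at all, a share of 0.05 of the genes tested would be expected. The C4-2 and 22Rv1 counts lie below that share.

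TRPM8 with OSU held 13.5, 14.5 and 13.9 CPM in LNCaP (14 ± 0.539 CPM) and 106, 102 and 114 CPM in C4-2 (108 ± 6.23 CPM), and overlapped vehicle in both. The log2 fold change was 0.13 ± 0.09 in LNCaP, with a 95% interval of -0.05 to 0.31 (adjusted p = 0.837, limma), and -0.03 ± 0.06 in C4-2, with an interval of -0.15 to 0.09 (adjusted p = 1.0, limma). TRPM4 with OSU stood at 98.8, 92.3 and 93.9 CPM in LNCaP, 54.6, 56.1 and 54 CPM in C4-2, and 55.2, 57.5 and 51.3 CPM in 22Rv1. Its intervals were the tightest of the 3 genes, -0.09 to 0.07, -0.10 to 0.09 and -0.13 to 0.07 (adjusted p = 0.986, 1.0 and 1.0, limma).

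CHRNA2 with OSU lay apart from vehicle in 22Rv1. There the OSU libraries held 6.85, 6.51 and 6.27 CPM (6.55 ± 0.292 CPM), all below the lowest vehicle library at 8.08 CPM, a mean of 77.2% of vehicle. The log2 fold change was -0.35 ± 0.08 with an interval of -0.51 to -0.19, which did not pass the adjustment over 14866 genes (adjusted p = 0.499, limma). This was the only one of the 8 measurable pairs of gene and line without overlap between OSU and vehicle, where 11.4%, 8.43% and 9.38% of all genes tested in LNCaP, C4-2 and 22Rv1 had none. Without the 4 libraries that stand apart, vehicle library 3 among them, the value was -0.30 (adjusted p = 1.0, limma).

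In LNCaP, CHRNA2 with OSU held 9.64, 11.1 and 10.3 CPM (10.4 ± 0.735 CPM) and in C4-2 4.84, 4.90 and 4.59 CPM (4.78 ± 0.162 CPM), overlapping vehicle in both. The log2 fold changes were 0.10 ± 0.09 (interval -0.09 to 0.29, adjusted p = 0.894, limma) and 0.04 ± 0.12 (interval -0.21 to 0.29, adjusted p = 1.0, limma). The OSU effect on CHRNA2 in 22Rv1 minus that in LNCaP was -0.45 ± 0.14 with an interval of -0.72 to -0.18 (adjusted p = 1.0 over 16026 genes, limma), and minus that in C4-2 -0.39 ± 0.14 with an interval of -0.66 to -0.11 (adjusted p = 1.0, limma). No gene was called for a difference in the OSU effect between 2 lines (0% each). At an unadjusted p under 0.05 there were 456 to 572 genes, fewer than a share of 0.05 of the 16026. For TRPM8 and TRPM4, OSU effects differed between lines by at most 0.16 on the log2 scale, and none of these was called.

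OSU added to Enza was compared with Enza alone. CHRNA2 in 22Rv1 with OSU+Enza held 2.62, 3.00 and 2.72 CPM (2.78 ± 0.200 CPM), below every Enza library (lowest 3.42 CPM), with a log2 fold change of -0.34 ± 0.08 and an interval of -0.50 to -0.18 (adjusted p = 0.0883, limma). Of 14866 genes, 15 were called in that comparison (0.101%), all of them lower. Of all genes, 10.8% did not overlap, 3.85% higher and 6.93% lower, so falls were the more common direction in these libraries. The CHRNA2 value rests partly on single libraries: without Enza library 3 it was -0.38 and past the threshold (adjusted p = 0.0498, limma), and without the 4 libraries that stand apart, OSU+Enza library 2 among them, it was -0.39 (adjusted p = 0.0659, limma). The comparisons of OSU with vehicle and of OSU+Enza with Enza share no library. In both, the 3 CHRNA2 values with OSU lay below the 3 without it in 22Rv1, and neither difference was called. Of all genes, 4.35% were lower without overlap in the first comparison and 6.93% in the second. The share of genes lower in both was not computed, so the 2 together carry no test.

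In C4-2 with OSU+Enza, CHRNA2 held 1.3, 0.894 and 1.13 CPM (1.11 ± 0.204 CPM), overlapping Enza, with a log2 fold change of -0.25 ± 0.12 (interval -0.50 to 0.01, adjusted p = 0.729, limma). TRPM8 there held 37.3, 34.4 and 39.6 CPM (37.1 ± 2.62 CPM), below the lowest Enza library at 40.3 CPM, with -0.17 ± 0.06 (interval -0.29 to -0.05, adjusted p = 0.603, limma). No gene of 14027 was called in this comparison (0%), 971 had an unadjusted p under 0.05, voom weights called 2, and 14.1% did not overlap. In LNCaP the values were 2.13, 2.17 and 2.25 CPM for TRPM8 (-0.08 ± 0.09, interval -0.26 to 0.10, adjusted p = 0.852, limma) and 0.816, 0.636 and 0.765 CPM for CHRNA2 (-0.02 ± 0.09, interval -0.21 to 0.16, adjusted p = 0.969, limma). TRPM8 in these LNCaP libraries was just below the lowest Enza library. That comparison had 14 calls (0.0982%), 1 higher and 13 lower, and 13% of genes without overlap.

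TRPM4 with OSU+Enza held 97.5, 97.7 and 97.3 CPM in LNCaP, 55.5, 52.9 and 51.5 CPM in C4-2, and 55.8, 57.9 and 55.5 CPM in 22Rv1. These overlapped Enza in each line, with log2 fold changes of -0.03 ± 0.04, -0.04 ± 0.05 and 0.05 ± 0.05 (adjusted p = 0.877, 0.869 and 0.779, limma).

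E2 and OSU were given at the same concentration and for the same time. At 100 nM for 12 h, CHRNA2 in 22Rv1 stood at 728% of vehicle with E2 and at 77.2% with OSU, in LNCaP at 499% and 108%, and in C4-2 at 431% and 103%. The E2 side of these figures was known when the gene was chosen and carries no test.

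Ordered by mean over the 18 groups, CHRNA2 ran from 61.7 CPM (22Rv1, E2) through 47.9 (LNCaP, E2), 39.8 (22Rv1, E2+Enza), 23.8 (LNCaP, E2+Enza) and 20.1 CPM (C4-2, E2) down to 0.739 CPM (LNCaP, OSU+Enza). Of its 17 pairs of neighbours in that order, 6 overlapped. The lowest pair, LNCaP with Enza and with OSU+Enza, was among them. For TRPM8 the 6 C4-2 groups came first, from 123 CPM (E2) to 37.1 CPM (OSU+Enza), then the 6 LNCaP groups, from 14 CPM (OSU) to 2.18 CPM (OSU+Enza), and last 22Rv1. Among its neighbours 10 of 17 pairs overlapped, 5 of them between 22Rv1 groups at 0. For TRPM4 the 6 LNCaP groups came first, and 13 of 17 pairs overlapped, and the E2 group of LNCaP and that of C4-2 each stood clear of the next group of its line.

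Other channel genes were set beside the 3 from lists of TRP channels, nicotinic receptor subunits and assembly factors, calcium handling genes, TRP partners and other channels, 97 genes in all, of which 85 were in the file and 57, 57 and 66 were tested in LNCaP, C4-2 and 22Rv1. With E2, 10 rose and 7 fell in LNCaP, 3 rose and 1 fell in C4-2, and 9 rose and 11 fell in 22Rv1 (limma, adjusted p under 0.05). Over all genes 24.9%, 5.82% and 27.7% were called. Scaled to total reads, the LNCaP split was 6 higher and 12 lower. With Enza, 12 rose and 9 fell in LNCaP, 3 rose and 5 fell in C4-2, and 0 rose and 2 fell in 22Rv1, where 20.4%, 8.44% and 0.659% of all genes were called. The list's median log2 fold change lay between -0.02 and 0.09 in these 6 comparisons, beside -0.03 to 0.03 for all genes.

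Of the other TRP channels, 9 were tested in LNCaP and in C4-2 and 12 in 22Rv1. With E2, 1, 0 and 2 of them were called, beside 24.9%, 5.82% and 27.7% of all genes. With Enza, 2, 1 and 0 were called, beside 20.4%, 8.44% and 0.659%. With so few genes tested, these counts are not read as a trait of TRP channels. With E2, TRPM7 rose in LNCaP (0.14 ± 0.04), and TRPV1 (-0.36 ± 0.10) and TRPM5 (-0.55 ± 0.18) fell in 22Rv1. With Enza, TRPM2 (-0.13 ± 0.04) and MCOLN2 (-0.28 ± 0.08) fell in LNCaP, and the calcium channel gene TRPV6 fell in C4-2 (-0.46 ± 0.09, adjusted p = 0.00199, limma). These 6 were named after their values were seen. Like TRPM8, TRPV6 was highest in C4-2 and lowest in 22Rv1, with 10.2 CPM in LNCaP, 15.6 CPM in C4-2 and 0.165 CPM in 22Rv1 under vehicle. TRPM7, with 84.6 to 106 CPM under vehicle, had the highest level of the TRP channels on the list.

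No other nicotinic receptor gene tested was called higher with E2. Over all genes, 13.3%, 2.72% and 17.1% were called higher with E2 in LNCaP, C4-2 and 22Rv1. The list's median log2 fold change was -0.1, 0.2 and -0.05, beside -0.01, -0.03 and 0.03 for all genes. Of the 10, 9 and 12 tested, the chaperone RIC3 fell in LNCaP with E2 (-0.32 ± 0.12) and with Enza (-0.35 ± 0.12), and CHRNA10 (-0.49 ± 0.19) and CHRNG (-0.53 ± 0.19) fell with E2 in 22Rv1, all named after their values were seen. The beta subunit genes CHRNB2 and CHRNB4, whose products pair with alpha subunits, were low under vehicle: CHRNB2 stood at 1.97, 0.777 and 2.83 CPM and CHRNB4 at 0.0069, 0.0398 and 1.81 CPM in LNCaP, C4-2 and 22Rv1. The alpha5 subunit gene CHRNA5 stood at 16.1, 18.7 and 12.8 CPM.

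Among the TRP partners, TCAF2, whose product is known to bind TRPM8, rose with E2 in LNCaP from 0.971 ± 0.433 to 3.46 ± 0.547 CPM (1.46 ± 0.20, adjusted p = 1.99e-06, limma). It was not called in C4-2 (0.30 ± 0.17, adjusted p = 0.327, limma). TCAF2 was named for a call at a log2 change of 1 or more, so its call in LNCaP was fixed by that choice. With Enza in LNCaP, 9 of 16 calcium handling genes rose and 1 fell, where 9.79% of all genes were called higher and 10.6% lower. The 9 are among the 12 list genes called higher, a count that was 7 without Enza library 3. In C4-2 with Enza, 2 of 16 calcium handling genes rose and 1 fell, beside 2.73% of all genes called higher and 5.71% lower. In 22Rv1 none of 17 was called, beside 0.659% of all genes. In LNCaP the largest change was that of the plasma membrane calcium pump gene ATP2B1 (0.71 ± 0.03). The store sensor genes STIM1 (0.22 ± 0.04) and STIM2 (0.15 ± 0.05) also rose there. These 3 genes, too, were named after their values were seen. ATP2B1 fell with E2 in LNCaP (-0.58 ± 0.03) and C4-2 (-0.26 ± 0.04) and was not called in 22Rv1 (-0.04 ± 0.06, adjusted p = 0.655, limma).

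Of the remaining channels, the calcium-activated potassium channel gene KCNMA1 moved with both agents in each line. With E2 it rose in LNCaP (0.70 ± 0.04), C4-2 (0.30 ± 0.04) and 22Rv1 (1.66 ± 0.12), and with Enza it fell (-0.66 ± 0.04, -0.37 ± 0.04 and -0.88 ± 0.12). All 6 were called, with the largest adjusted p at 8.1e-05 (limma). KCNMA1, GRIN3A, KCNN2 and GABRE were named for calls with E2 or Enza at a log2 change of 1 or more in a line. Their calls with these agents were thus partly fixed by that choice. In 22Rv1 its level was 2.17 ± 0.277 CPM with vehicle, 7.92 ± 0.121 CPM with E2 and 0.944 ± 0.11 CPM with Enza. GRIN3A, an NMDA receptor subunit gene, rose with E2 (0.39 ± 0.09, 0.28 ± 0.05 and 0.36 ± 0.06) and fell with Enza in LNCaP (-1.47 ± 0.09), C4-2 (-1.10 ± 0.05) and 22Rv1 (-0.29 ± 0.06), all called.

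KCNN2, another calcium-activated potassium channel gene, rose with E2 in the 3 lines (0.50 ± 0.05, 0.20 ± 0.04 and 1.24 ± 0.11) and fell with Enza in LNCaP (-1.02 ± 0.05) and C4-2 (-0.53 ± 0.04), but was not called with Enza in 22Rv1 (0.05 ± 0.11, adjusted p = 0.854, limma). The GABA receptor subunit gene GABRE was not called with E2 in C4-2 (0.38 ± 0.17, adjusted p = 0.211, limma). It fell in LNCaP (-0.55 ± 0.17) and in 22Rv1 (-1.63 ± 0.11), where it stood at 53.9 ± 6.18 CPM with vehicle and 17.1 ± 1.51 CPM with E2. The comparison of OSU+Enza with Enza called KCNN2 in LNCaP (-0.28 ± 0.05, adjusted p = 0.00792, limma) and GRIN3A in 22Rv1 (-0.33 ± 0.06, adjusted p = 0.0227, limma). The latter stands beside the -0.34 ± 0.08 of CHRNA2 in the same libraries, where all 15 genes called were lower.

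The genes beside the 3 on their chromosomes were read in the same fits. CHRNA2 lies 0.365 kb from PTK2B and 11.9 kb from EPHX2, with TRIM35 and CLU next to these. In 22Rv1 all 4 rose with E2: TRIM35 by 0.43 ± 0.05, PTK2B by 0.61 ± 0.05, EPHX2 by 0.55 ± 0.07 and CLU by 0.56 ± 0.05 (largest adjusted p = 4.75e-07, limma), where 17.1% of all genes were called higher. CLU went from 366 ± 6.83 to 541 ± 16.4 CPM. In LNCaP, TRIM35 (0.30 ± 0.06), PTK2B (0.27 ± 0.03) and EPHX2 (0.15 ± 0.05) rose and CLU was not called (0.21 ± 0.10, adjusted p = 0.132, limma), and in C4-2 none of the 4 was called. With Enza in LNCaP, TRIM35 fell (-0.34 ± 0.06, adjusted p = 0.000227, limma) and CLU rose (0.43 ± 0.10, adjusted p = 0.00302, limma), PTK2B and EPHX2 were not called, and in C4-2 and 22Rv1 none of the 4 was called.

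Near TRPM8 the genes HJURP and MSL3B lie 62.8 and 49.0 kb before it and SH3BP4 932 kb after it. None of these 3 was called lower with Enza in any line. MSL3B (0.18 ± 0.05) and SH3BP4 (0.18 ± 0.04) rose with Enza in LNCaP. All 3 had reads in 22Rv1, the line without TRPM8 reads. Near TRPM4, PPFIA3 rose with E2 in LNCaP (0.17 ± 0.04) and CD37 fell with E2 in LNCaP (-0.48 ± 0.13) and 22Rv1 (-0.72 ± 0.12). SLC6A16 fell with E2 in 22Rv1 (-0.52 ± 0.13) and was not called in LNCaP or C4-2, while HRC was not called in LNCaP or C4-2 and was too low to be tested in 22Rv1.

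**Figure D3:**
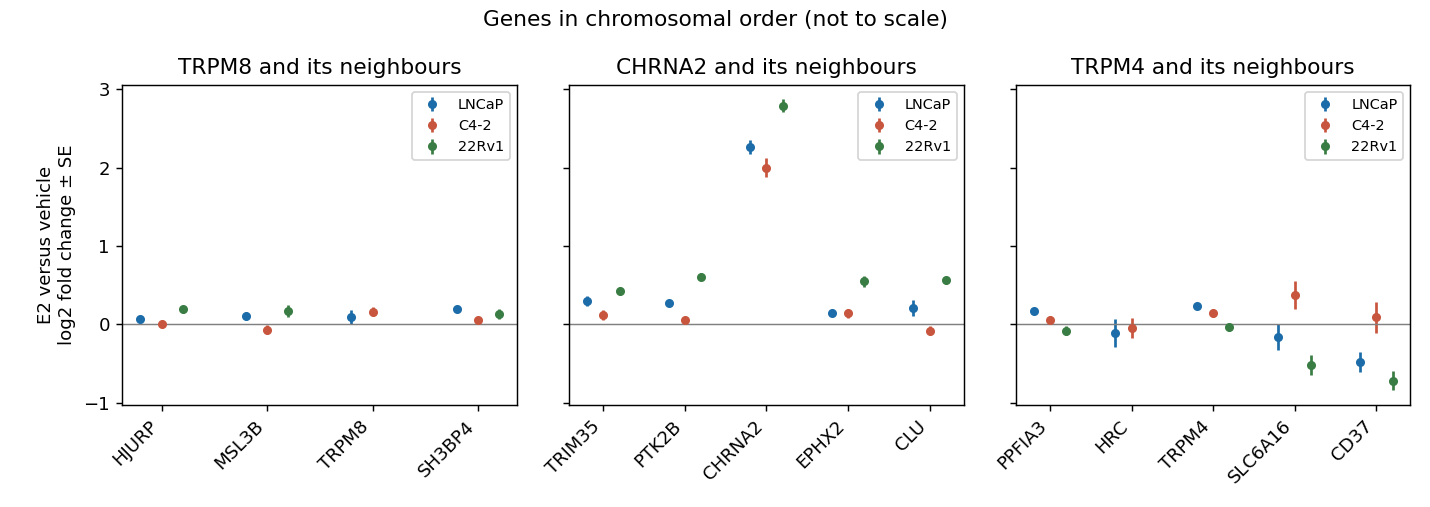
Log2 fold change ± SE of E2 versus vehicle (y axis) for each of the 3 genes and the neighbours named in the text, in chromosomal order and not to scale. Colours are cell lines, with 3 libraries per group. All 4 neighbours of CHRNA2 lie above 0 in 22Rv1, far below CHRNA2 itself at 2.79.

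The genes whose pattern was most like each of the 3 were found over the 18 group means of log2(CPM + 0.5), each centred on its line, with Pearson's r as a description. All points share libraries with the choice of the genes, so no test is given. The patterns of TRPM8 and CHRNA2 themselves had r = 0.752, those of TRPM8 and TRPM4 r = 0.253, and those of CHRNA2 and TRPM4 r = 0.344. Most like CHRNA2 among 12969 genes were RASSF3 (r = 0.992), HOMER2 (0.990), ZBTB16 (0.989), PER1 (0.986) and CROT (0.986). ZBTB16, a zinc finger transcription factor gene, stood at 49.7 ± 5.65 CPM with vehicle, 94.6 ± 3.36 CPM with E2, 16.7 ± 0.241 CPM with Enza and 66.9 ± 4.63 CPM with both in LNCaP. PER1, a circadian clock gene, stood at 25.4 ± 0.588, 48.8 ± 1.35, 12.4 ± 1.29 and 33.7 ± 1.55 CPM. CHRNA2 spanned 5.29 log2 units over these means, ZBTB16 2.65 and RASSF3 1.08.

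Most like TRPM8 among 16025 genes were VWA5B1 (r = 0.986), DSC3 (0.979), RUNDC1 (0.966), PLPP5 (0.964) and PLA2G5 (0.961). For TRPM8 the 6 points of 22Rv1 are all at 0. DSC3, a desmosomal cadherin gene, stood at 2.04 ± 0.433 CPM with vehicle and 0.26 ± 0.0509 CPM with Enza in LNCaP, and had at most a trace in 22Rv1. RUNDC1 had reads in all 3 lines, with 51.7 ± 0.632 and 43.5 ± 1.59 CPM in LNCaP and 27.5 ± 1.18 and 28.6 ± 1.42 CPM in 22Rv1. For TRPM4, whose means spanned 0.24 log2 units, the highest values were lower: PART1 (0.884), FOSL2 (0.864), FHIT (0.863), SGK1 (0.861) and SPTBN4 (0.856). SGK1, a kinase gene, stood at 2.96 ± 0.739 CPM with vehicle and 21.5 ± 0.924 CPM with E2 in LNCaP.

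**Figure D4:**
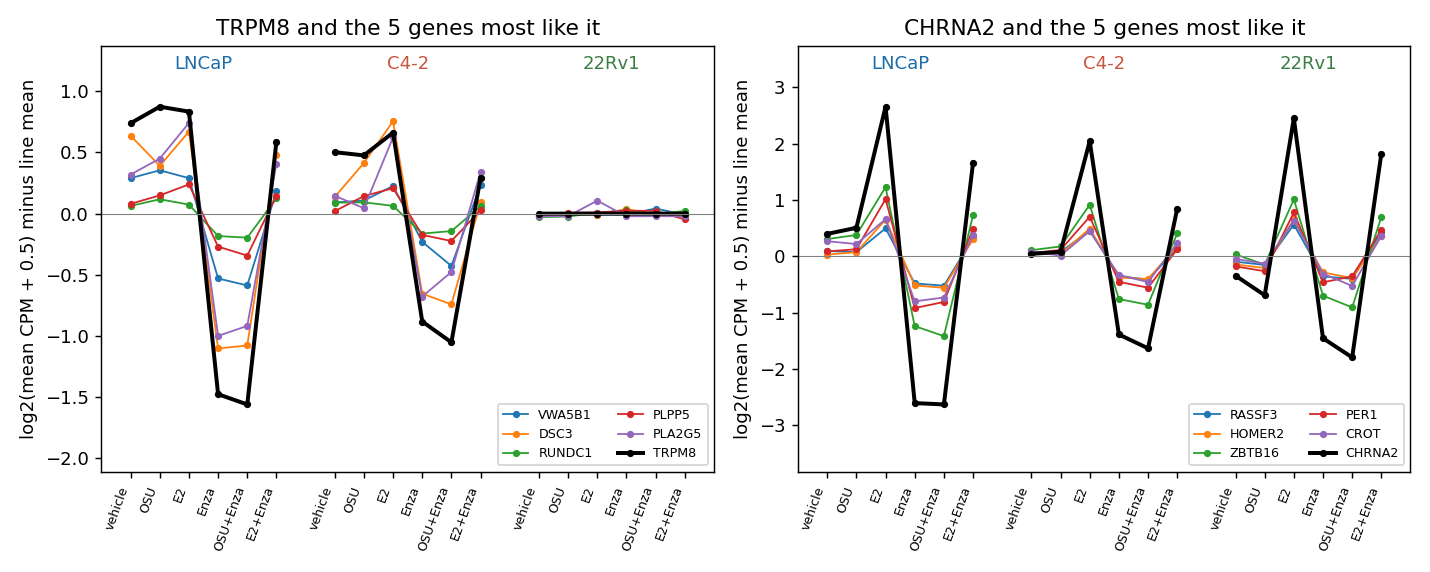
Log2(mean CPM + 0.5) minus the mean of its line (y axis) over the 18 groups (x axis) for TRPM8 (left) and CHRNA2 (right), black lines, and the 5 genes most like each, coloured lines. Each point is the mean of 3 libraries. The black lines have the widest range in both panels, 2.43 and 5.29 log2 units, and TRPM8 is flat at 0 in 22Rv1, where it had no reads.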

How the data were processed

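Per the labels' protocols, TRIzol RNA went into TruSeq Stranded Total RNA libraries. Per the submitters' processing notes, the tools included edgeR, featureCounts, FastQC and Trimmomatic and the build was hg38, with versions not given in the sources used here. The authors' deposited table is labelled CPM, but its unit is a score: the values are log2 CPM, with 0.5 reads added first, rescaled to a column sum of 1000000. Undoing the scaling gave whole reads for 100% of entries (tolerance 0.01, largest distance 8.2e-07), and CPM was computed from them with the authors' effective library sizes. RefSeq symbols were found for 18917 IDs, the 3 genes among them.

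Groups came from the titles and, for OSU, from the treatment labels, since titles write WT for OSU. Log2(CPM + 0.5), which understates changes of low genes, was tested with limma 3.58.1 (R 4.3.3) and its trend option. The filter asked for 1 CPM or more in 3 or more of the libraries fitted. Lines were fitted separately (18 libraries), except to compare lines (54). Calls have a two-sided Benjamini-Hochberg adjusted p under 0.05 over all genes of a comparison, and intervals are at 95%. The code was tested on simulated data. Same-numbered replicates were checked in 21 comparisons, with correlations of -0.515 to 0.262, and in none did every pair exceed 0.1. The numbers were therefore not used to pair samples, though this check cannot exclude pairing or a shared batch. A limit from 0 reads covers counting error only.

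The 3 genes, the lists and the rule for named genes were chosen with earlier results of these data known. The rule takes list genes called with E2 or Enza at a log2 change of 1 or more and 1 CPM or more, the nearest 2 measured genes on each side, and the 5 genes most like each; 1 gene it takes is not reported here. Alternatives were other pseudocounts, no filter, other scalings, voom weights on the reads, a replicate block, 1 fit of all libraries, and fewer libraries.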

Additional observations from a re-analysis of the deposited data

How the results depend on the processing

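For 72 results on TRPM8, CHRNA2 and TRPM4, 1154 alternative values were computed. Of these, 1118 stayed on their side of the threshold or, with no test, moved by less than the library spread. They include 17 values whose sign turned without a call. Most of the 36 others came from the pseudocount or voom weights on low levels. With 2 CPM added, CHRNA2 with E2 was 2.10 in LNCaP, 1.73 in C4-2 and 2.61 in 22Rv1, and with Enza -0.96 in C4-2 (voom -1.72) and -0.89 in 22Rv1. With 0.1 CPM added, 2 CPM added and voom weights in turn, Enza versus vehicle in LNCaP was -2.39, -1.76 and -2.44 for TRPM8 and -3.50, -2.07 and -3.65 for CHRNA2, and E2+Enza versus Enza was 2.23, 1.62 and 2.27 for TRPM8 in LNCaP and 4.80, 3.22 and 4.95 in LNCaP, 2.52, 1.62 and 2.59 in C4-2, and 3.41, 2.89 and 3.44 in 22Rv1 for CHRNA2. The E2 effect with minus without Enza, whose alternatives were added after seeing the data, was 1.54 (2 CPM) and 2.18 (voom) for TRPM8 in LNCaP; for CHRNA2 it was 2.49, 1.12 and 2.63 in LNCaP, and with 2 CPM -0.11 in C4-2, where the sign turned, and 0.28 in 22Rv1. Scaled to total reads, TRPM4 with E2 in 22Rv1 was -0.10, and its 22Rv1 minus C4-2 vehicle level was 0.26; the cause was not tested. CHRNA2 under vehicle, 22Rv1 minus LNCaP, was -0.15 with 2 CPM added and -0.22 without the 4 libraries that stand apart, both past the threshold. Leaving out 1 library at a time, CHRNA2 with OSU+Enza versus Enza in 22Rv1 ranged from -0.39 to -0.29. The main fits did not pair samples by replicate number. A replicate block could not move a fold change within a line, since each group holds each replicate number once. Only the spread, and so the calls, and the levels compared between lines could change. The largest move was 0.06, and no call changed among the 32 results with a test. The 72 block values are among the 1154, so their stability says little about pairing. The counts of other channel genes moved more. With E2, those lower in LNCaP went from 7 to 12 (total reads) or 4 (without vehicle library 1 or E2 library 1), those lower in 22Rv1 from 11 to 7 (1 fit, or without the 4 libraries) and to 5 to 6 without vehicle library 1 or 3 or E2 library 1, and those lower in C4-2 from 1 to 4 (1 fit) or 2 (without E2 library 2). With Enza in LNCaP, those lower went from 9 to 3 (1 fit) or 5 (without vehicle library 2, Enza library 1 or Enza library 3), and those higher from 12 to 7 without Enza library 3. With Enza in 22Rv1, those lower went from 2 to 1 without the 4 libraries, vehicle library 1 or 3, or Enza library 2, and those higher from 0 to 1 in 1 fit or without Enza library 3. Over all genes, OSU+Enza versus Enza called 2 to 16 genes in LNCaP (14 reported), 0 to 2 in C4-2 (0) and 1 to 86 in 22Rv1 (15), and OSU versus vehicle 0 to 2, 0 to 1 and 0 to 6 (2, 0 and 0). These ranges do not cover the fits that leave out 1 library. In 22Rv1 the highest counts came from 1 fit of all libraries, and OSU+Enza versus Enza called 1 gene with no filter and 5 without the 4 libraries. Depth limits CHRNA2 with Enza in LNCaP, at 28 to 39 reads, and TRPM8 in 22Rv1, at 0 reads.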

Other observations

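E2 added to Enza was also read for the other channel genes, with limma calls at an adjusted p under 0.05. In LNCaP 10 of 57 rose and 9 fell relative to Enza alone, in C4-2 5 of 57 rose and 1 fell, and in 22Rv1 5 of 66 rose and 3 fell, where 23.1%, 7.38% and 7.94% of all genes were called. KCNMA1 rose in the 3 lines (0.93 ± 0.04, 0.39 ± 0.04 and 1.96 ± 0.12), as did GRIN3A (1.42 ± 0.09, 1.12 ± 0.05 and 0.35 ± 0.06) and KCNN2 (1.13 ± 0.05, 0.50 ± 0.04 and 0.78 ± 0.11). KCNN2 rose in 22Rv1 although Enza alone had not moved it there past the threshold. ATP2B1, the plasma membrane calcium pump gene, fell by 1.10 ± 0.03 in LNCaP and by 0.30 ± 0.04 in C4-2, and the sodium channel subunit gene SCNN1A fell by 0.62 ± 0.05 in LNCaP. GABRE fell by 1.16 ± 0.11 in 22Rv1. ATP2B1 and SCNN1A were named after their values were seen.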
